A study of Mus musculus with 40 samples.

Results

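Genes in which inherited changes cause or raise the risk of Parkinson disease act in several compartments of a neuron. The 10 described here encode proteins whose best known work lies outside the lysosome: Pink1, Park7, Lrrk2, Vps35, Vps13c, Dnajc6, Gak, Uchl1, Fbxo7 and Pla2g6. They were chosen by name from that definition, with no measured value in the rule, and they are 10 of the 20805 genes in the expression table. The mice were males. Those called aSyn Tg were homozygous for a transgene of [A30P] aSyn, and the wild-type littermates (Wt, C57BL/6J) carried none. Midbrain RNA of each genotype was taken at 15 mo and 3 mo. The methods give the Thy-1 promoter for the transgene, which is active in many kinds of neuron. The strain name printed beside it reads as a tyrosine hydroxylase promoter with a further mutation, so the line is described here by its genotype label only. Input RNA, the part kept aside before m6A immunoprecipitation, was counted in 19 libraries, 5 each for aSyn Tg 15 mo, aSyn Tg 3 mo and Wt 15 mo and 4 for Wt 3 mo. The methods state 5 mice of each kind, but the labels do not tie a library to an animal.

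PINK1 is known as a kinase that marks damaged mitochondria for removal, and DJ1, the product of Park7, protects cells against oxidative stress. LRRK2 is a kinase that phosphorylates Rab proteins of the endosomal and vesicle system, VPS35 is the core of the retromer that returns cargo from endosomes, VPS13C moves lipids between membranes, and the auxilins DNAJC6 and GAK strip the clathrin coat from vesicles. UCHL1 is an abundant neuronal ubiquitin hydrolase, FBXO7 is an F-box subunit of ubiquitin ligases that also binds the proteasome, and PLA2G6 is a phospholipase A2 that remodels membrane lipids.

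Totals were 2163856 to 4925564 reads in aSyn Tg 15 mo, 5047836 to 6630726 in aSyn Tg 3 mo, 3916174 to 5411221 in Wt 15 mo and 3626502 to 9195756 in Wt 3 mo. aSyn Tg 15 mo library 5 had the lowest total, and its 10 most abundant genes took a larger share of its reads than in any other library, where that share was 5.44% to 7.88%. The midbrain label was checked by 12 dopaminergic markers, which were all read in each group. Their summed level in CPM (reads scaled to the same total in every library) was 473 to 769 in aSyn Tg 15 mo, 539 to 782 CPM in aSyn Tg 3 mo, 429 to 758 CPM in Wt 15 mo and 541 to 783 CPM in Wt 3 mo. The medians of these sums were 648, 661, 488 and 666 CPM in the same order, lowest in Wt 15 mo. The Wt 15 mo libraries also differed in markers of neighbouring regions. The summed serotonergic and cholinergic markers were 18.2 to 91.3 CPM there, against 115 to 322 CPM across the other 3 groups. The thalamic and hypothalamic markers were 629 to 1564 CPM in Wt 15 mo (median 997), highest in library 1. They overlapped the 458 to 867 CPM of the other 3 groups. The part of these tissue markers in the comparisons with Wt 15 mo was not tested. In bulk tissue, fewer cells of a type and less RNA per cell cannot be told apart.

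All 10 genes reached the mean of 50 normalized counts needed for testing in each comparison. To be called, a gene had to differ by 1.2-fold or more with an adjusted p no higher than 0.05 (edgeR quasi-likelihood test, Benjamini-Hochberg adjustment over all genes tested). None of the 10 was called in any of the 7 comparisons made. Over all genes tested, 0.918% were called between aSyn Tg 15 mo and aSyn Tg 3 mo, 0.361% between Wt 15 mo and Wt 3 mo, 0.835% between aSyn Tg and Wt at 3 mo, and 0.22% between aSyn Tg and Wt at 15 mo. In the fits to all 19 libraries, 0.174% were called between genotypes over both ages, 1.47% between ages over both genotypes and 0.00917% for the interaction of genotype and age. A count of 0 among 10 genes was therefore near what these shares gave. At an unadjusted p under 0.05 the counts were 1, 1, 2, 2, 2, 1 and 2 of 10 in the same order, beside 11.2%, 15.6%, 12%, 11.2%, 12.5%, 15.8% and 10.5% of all genes tested.

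The size of the differences was small. The median absolute log2 fold change of the 10 genes was 0.029 between ages in aSyn Tg, against 0.069 over all genes tested, and 0.088 against 0.080 between ages in Wt. Between aSyn Tg and Wt it was 0.051 against 0.063 at 3 mo and 0.032 against 0.080 at 15 mo. The 95% interval of the fold change lay wholly inside a 1.2-fold change in either direction for 7 of 10 genes between ages in aSyn Tg and for 8 of 10 between ages in Wt. It did so for 9 of 10 between genotypes at 3 mo and for 8 of 10 between genotypes at 15 mo. The intervals that reached past that limit belonged to Lrrk2, Pink1, Uchl1 and Pla2g6.

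**Figure D1:**
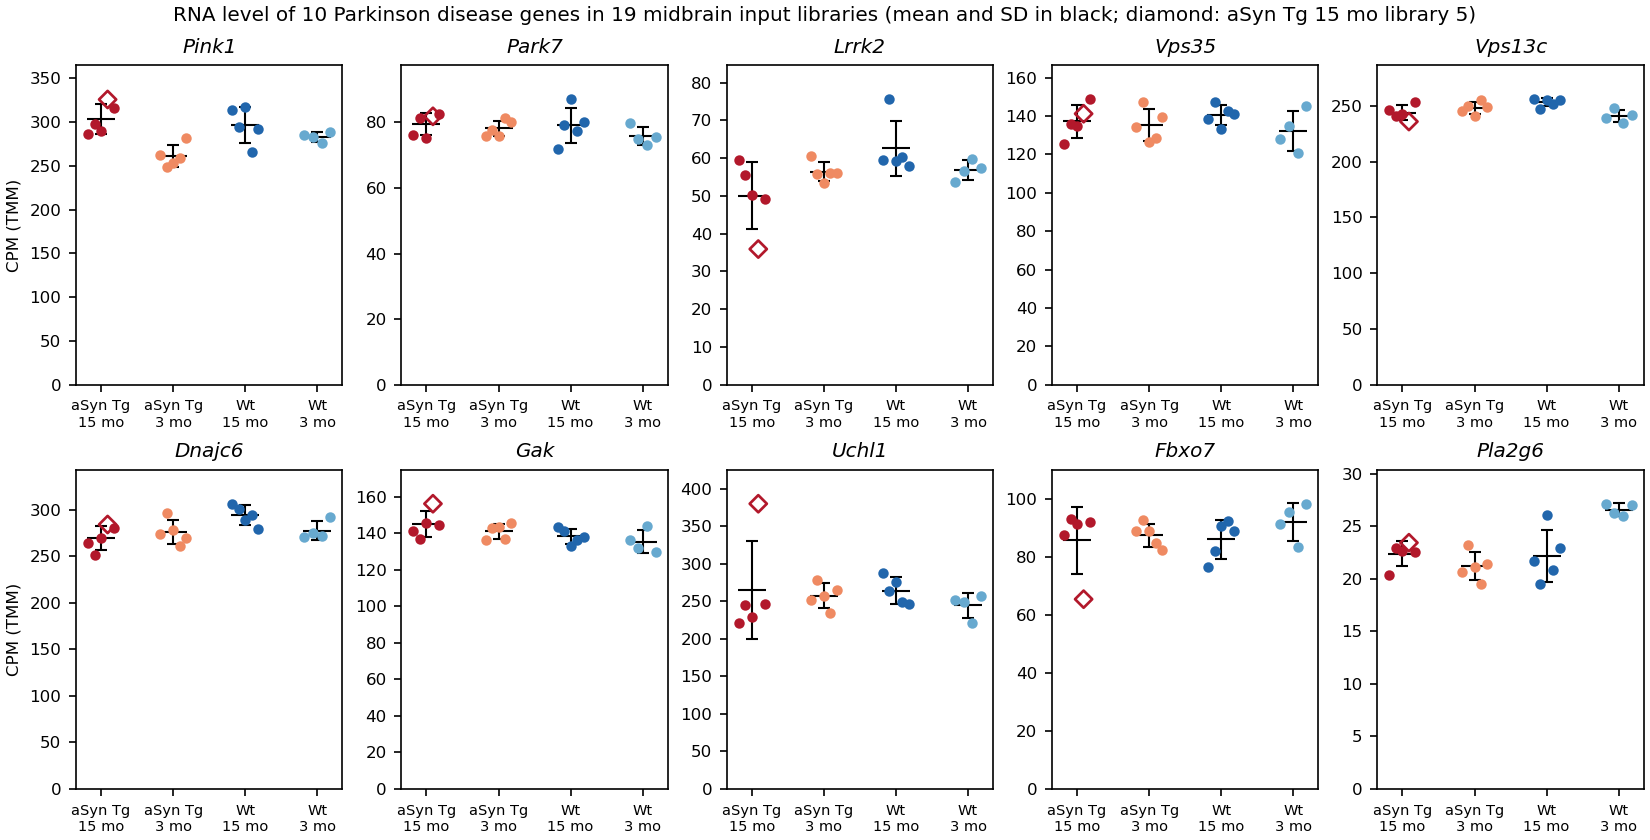
RNA level in CPM (vertical axes, from 0) of the 10 genes in each input library, with the groups aSyn Tg 15 mo, aSyn Tg 3 mo, Wt 15 mo and Wt 3 mo along the horizontal axes; points are libraries, bars the mean ± SD, and the open diamond is aSyn Tg 15 mo library 5. Most groups overlap; the aSyn Tg 3 mo points of Pink1 lie below those of aSyn Tg 15 mo, the aSyn Tg 3 mo points of Pla2g6 lie below those of Wt 3 mo, and the diamond stands apart for Lrrk2, Uchl1 and Fbxo7.

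m6A, a methyl mark on adenosines of RNA, was read by immunoprecipitation as peaks, and the authors deposited 1 consensus list of peaks for each group. A peak thus has no value per library, and its fold enrichment could not be tested between groups here. Methyl groups are placed mostly at an A followed by C within a short sequence, of which GGAC is the commonest core in mammals. Of the 10 genes, 4 carried at least 1 peak in at least 1 of the 4 lists (Park7, Dnajc6, Gak and Fbxo7), beside 59.5% of all genes tested and 63% of the genes within the range of the 10 in mean CPM. Pink1, Lrrk2, Vps35, Vps13c, Uchl1 and Pla2g6 had none in any list. The lists held 5 peaks of 3 of these genes in aSyn Tg 15 mo, where 52.6% of all genes tested had a peak, and 7 peaks of 4 genes in aSyn Tg 3 mo (52.2%). They held 4 peaks of 4 genes in Wt 15 mo (54.5%) and 7 peaks of 4 genes in Wt 3 mo (54.1%). The 23 peaks fell on 7 sites, counting peaks that shared at least 1 base as 1 site. Of these sites, 3 were in all 4 lists, 3 were in 3 lists and 1 was in 2 lists.

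Short windows of 25 bases around a candidate core inside 5 of these sites are printed to show which letters the peaks cover, written 5′ to 3′ on the transcript strand of GRCm38 (mm10), with the 4 letters of the core in capitals.
Park7, chr4:150897303-150897327 (minus strand): ttgttctcaaAGACtagagcccaag
Dnajc6, chr4:101640842-101640866 (plus strand): tggggaaataGGACctcggccaccc
Gak peak 1, chr5:108582861-108582885 (minus strand): actctgagggGGACttaaggcctgc
Gak peak 2, chr5:108569725-108569749 (minus strand): ccaggggcctGGACcatctactccc
Fbxo7 peak 3, chr10:86051161-86051185 (plus strand): tcaacttaagAAACcatccattttc
The letters searched, on both strands, were GGACT and its first letters GGAC, as well as AGAC, and further GAAC and AAAC. Each GGACT is also a GGAC. On the transcript strand, the coding peak of Gak held the one GGACT of the 7 sites, and Gak peak 2 held 3 GGAC, the most of any site. Of all peaks of 60 to 241 nt, 27.4% to 28.6% held GGACT, 61.3% to 63.4% GGAC, 55.1% to 56.5% AGAC, 47.8% to 49.7% GAAC and 41.0% to 42.4% AAAC, across the 4 lists. Fbxo7 peaks 1 and 2 held none of the searched cores on the transcript strand, which says only that these letters were not in those windows.

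Park7 had 1 site, at the end of its coding sequence and in the 3′UTR, in exon 7 of 7 (widest extent chr4:150897133-150897372, minus strand). Its fold enrichment of immunoprecipitated over input reads was 2.71 in aSyn Tg 15 mo, 1.94 in aSyn Tg 3 mo, 2.64 in Wt 15 mo and 2.45 in Wt 3 mo, values that stood at the 2.24 to 11.6 percentile of their lists. The A of the printed AGAC lies 4 bases before the end of the stop codon and was covered only by the Wt 15 mo peak, which was the widest at 240 nt. In 3 of the 4 lists this was the weakest peak of the 10 genes, and in Wt 3 mo Fbxo7 peak 1 was weaker.

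Dnajc6, the neuronal auxilin, had 1 site in the 3′UTR of exon 19 of 19 (widest extent chr4:101640640-101640880, plus strand), starting 67 nt after the stop codon. The fold enrichment was 3.29 in aSyn Tg 3 mo, 3.15 in Wt 15 mo and 3.74 in Wt 3 mo, and the aSyn Tg 15 mo list held no Dnajc6 peak. The printed GGAC, with its A 281 nt after the stop codon, lay inside the peak as called in Wt 15 mo and Wt 3 mo and past the end of the narrower peak called in aSyn Tg 3 mo.

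Gak, the auxilin found in most tissues, had 2 sites. Peak 1 lay in the coding sequence, in exon 21 of 28 (chr5:108582853-108583092, minus strand), with a fold enrichment of 3.77 in aSyn Tg 15 mo, 2.80 in aSyn Tg 3 mo, 3.92 in Wt 15 mo and 3.84 in Wt 3 mo. It was the single site among the 7 outside the region of the stop codon and 3′UTR. Peak 2 lay in the 3′UTR (chr5:108569651-108569830, minus strand), with 4.02 in aSyn Tg 15 mo, 3.03 in aSyn Tg 3 mo and 2.83 in Wt 3 mo, and the Wt 15 mo list held none. The printed GGACT lay inside peak 1 as called in aSyn Tg 3 mo, Wt 15 mo and Wt 3 mo and outside the narrower aSyn Tg 15 mo peak.

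Fbxo7 had the most sites, 3, all in a 3′UTR of 3765 nt, the longest of the 10 genes. Peak 2 (chr10:86049743-86049953, plus strand) started 1635 nt after the stop codon and was in all lists. Its fold enrichment was 4.94 in aSyn Tg 15 mo, 5.46 in aSyn Tg 3 mo, 4.88 in Wt 15 mo and 5.50 in Wt 3 mo. Peak 3 (chr10:86051003-86051243, plus strand) had 5.47 in aSyn Tg 15 mo, 3.52 in aSyn Tg 3 mo and 3.02 in Wt 3 mo, and was not in the Wt 15 mo list. The printed AAAC lay inside peak 3 as called in aSyn Tg 15 mo and Wt 3 mo. It was past the end of the narrower peak called in aSyn Tg 3 mo. Peak 1 (chr10:86049353-86049413, plus strand) was in the lists of both groups at 3 mo, with 3.12 in aSyn Tg 3 mo and 2.16 in Wt 3 mo, and in neither list at 15 mo. Of the 23 peaks of the 10 genes, 3 stood above the median fold enrichment of their list, all of them of Fbxo7. Those medians were 5.22 in aSyn Tg 15 mo, 4.74 in aSyn Tg 3 mo, 4.94 in Wt 15 mo and 4.70 in Wt 3 mo.

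No peak of the 10 genes was in any of the 6 lists of differential peaks at a fold change of at least 1.2 and an FDR of at most 0.05. Those lists held a peak in 2.95% of all genes tested for aSyn Tg 15 mo against aSyn Tg 3 mo and in 2.71% for Wt 15 mo against Wt 3 mo. The share was 2.23% for aSyn Tg against Wt at 3 mo and 2.56% at 15 mo. It was 4.92% for aSyn Tg 15 mo against Wt 3 mo and 0.789% for Wt 15 mo against aSyn Tg 3 mo. A peak that one list held and another did not was thus not listed as differential, and the presence or absence of a peak in a list had no error to set it against. The 4 genes with a peak had 3′UTRs of 178 to 3765 nt in the transcript used, and the 6 without had 249 to 738 nt. GGAC occurred 2.55 (Uchl1) to 7.71 (Park7) times per kb of transcript over the 10 genes, and Pla2g6, with no peak, had 24 of them in 3365 nt.

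**Figure D2:**
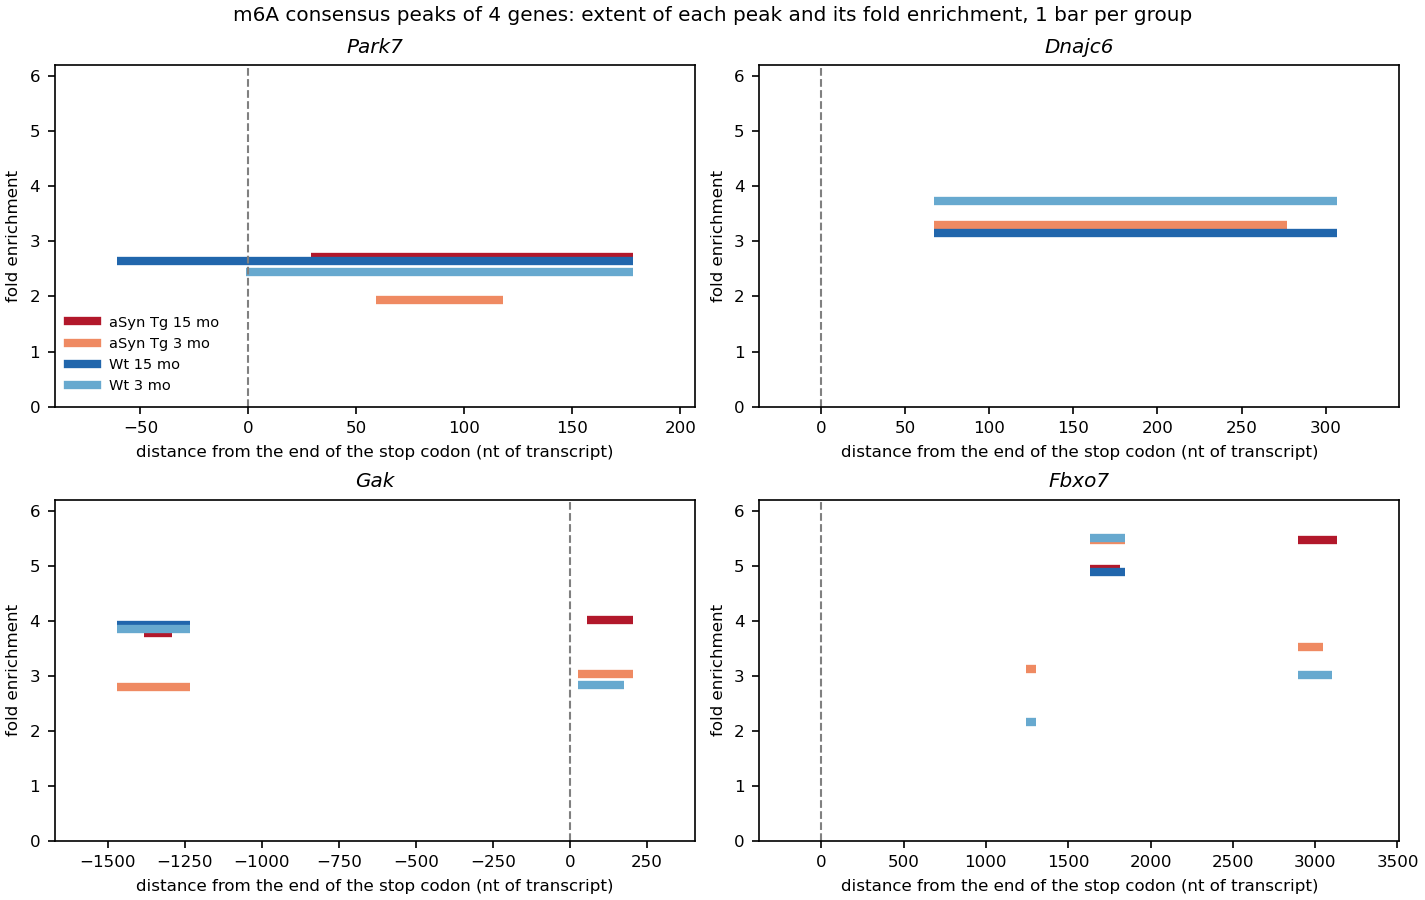
Fold enrichment (vertical axes, immunoprecipitated over input) of each m6A peak of Park7, Dnajc6, Gak and Fbxo7 against its position in nt of transcript from the end of the stop codon (horizontal axes, dashed line at 0); each bar spans 1 peak in the list of 1 group, and bars of near equal height partly hide each other. Park7 peaks sit between 1.94 and 2.71, and Fbxo7 peak 2 between 4.88 and 5.50 in all 4 groups.

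Pink1 (chr4:138313409-138326307, minus strand, GRCm38), the mitochondrial kinase, had the lowest adjusted p of the 10 genes between ages in aSyn Tg. Its level was 286, 298, 290.3, 326 and 316 CPM in the 5 aSyn Tg 15 mo libraries, given in order of library number as for all values that follow (2 to 6 in this group, 1 and 3 to 6 in aSyn Tg 3 mo, 1 to 5 in Wt 15 mo and 2 to 5 in Wt 3 mo). It was 263, 249, 254, 259 and 282 CPM in the 5 aSyn Tg 3 mo libraries. Each aSyn Tg 15 mo library was above each aSyn Tg 3 mo library. Groups without overlap were found for 1 of the 10 genes, Pink1, in this comparison, beside 3.45% of all genes tested. Between ages in Wt 0 of 10 genes had such groups, beside 5.25%, and between genotypes at 15 mo 0 of 10, beside 2.81%. The fold change was 1.16 (95% interval 1.08 to 1.25), on the log2 scale 0.22 ± 0.05 (SE), with an adjusted p of 0.062 in edgeR, so that Pink1 missed both limits of a call. Over the other settings the adjusted p of Pink1 was 0.0036 (DESeq2) to 0.23 (replicate block), and it was below 0.05 without aSyn Tg 15 mo library 5 (0.039) and without aSyn Tg 3 mo library 6 (0.045). The log2 fold change was 0.19 to 0.25 in these settings, below the fold limit in all of them. The summed level of the 9 microglial markers, all of them above 0, was 269 to 406 CPM in aSyn Tg 15 mo and 195 to 214 CPM in aSyn Tg 3 mo, and the part of this in the Pink1 values was not tested.

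In Wt the Pink1 values were 314, 294, 317, 266 and 292 CPM at 15 mo and 286, 283, 276 and 289 CPM at 3 mo. The Wt 15 mo values lay on both sides of the Wt 3 mo values, and the fold change of 1.05 did not pass the test (adjusted p = 0.56, edgeR). Over both genotypes, with all 19 libraries in the fit, Pink1 was 1.11-fold higher at 15 mo (95% interval 1.05 to 1.17, adjusted p = 0.040, edgeR), which passed the limit on p but not that on the fold. With 1 library left out, the adjusted p of this difference was 0.010 to 0.078 (edgeR). Across the other settings it was 0.0059 to 0.060, so the limit on p was not passed in all of them. The interaction of genotype and age was 0.14 ± 0.07 (log2, SE) with an adjusted p of 0.48, so the age difference of Pink1 was not shown to differ between genotypes. Between genotypes, Pink1 in aSyn Tg was at 0.925 of the Wt level at 3 mo (adjusted p = 0.25; 4 of 5 aSyn Tg libraries below all 4 Wt libraries) and at 1.02 of it at 15 mo (adjusted p = 0.86).

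Park7 (chr4:150897133-150914437, minus strand), which encodes the oxidative stress protein DJ1, was among the steadiest of the genes. Its levels were 76.2, 81.2, 75.3, 81.8 and 82.6 CPM in aSyn Tg 15 mo and 75.9, 77.6, 75.9, 81.2 and 80.1 CPM in aSyn Tg 3 mo. In Wt they were 71.9, 79.1, 87.0, 77.2 and 80.1 CPM at 15 mo and 79.8, 74.9, 73.2 and 75.4 CPM at 3 mo. All 4 groups overlapped. The fold changes were 1.02 between ages in aSyn Tg, 1.04 between ages in Wt, 1.03 between aSyn Tg and Wt at 3 mo and 1.01 at 15 mo, and the widest of their 95% intervals, between ages in Wt, was 0.950 to 1.14.

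Lrrk2 (chr15:91673175-91816120, plus strand) had its widest spread at 15 mo. The kinase transcript was at 59.6, 55.5, 50.3, 35.9 and 49.2 CPM in aSyn Tg 15 mo and at 59.6, 75.5, 59.3, 60.4 and 57.9 CPM in Wt 15 mo. The lowest value was that of aSyn Tg 15 mo library 5, with 72 reads, and the highest that of Wt 15 mo library 2. The groups overlapped, with 4 of 5 aSyn Tg libraries below all Wt libraries, and the fold change was 0.819 (95% interval 0.691 to 0.971, adjusted p = 0.36, edgeR). Without aSyn Tg 15 mo library 5 the log2 fold change was -0.21 against -0.29 with it, and without Wt 15 mo library 2 it was -0.21 with an adjusted p of 0.58. Wt 15 mo library 2 also had the highest summed level of the markers of cortex, hippocampus and cerebellum, 429 CPM, against 114 to 136 CPM in aSyn Tg 15 mo and a median of 186 CPM in Wt 15 mo. The part of these tissue markers in the Lrrk2 values was not tested.

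At 3 mo Lrrk2 did not separate the genotypes, with 60.7, 55.8, 53.4, 56.2 and 56.2 CPM in aSyn Tg and 53.7, 56.6, 59.8 and 57.3 CPM in Wt. The fold change was 0.999, with a 95% interval of 0.922 to 1.08. Between ages, Lrrk2 was at 0.908 in aSyn Tg (adjusted p = 0.64) and at 1.10 in Wt (adjusted p = 0.44), and the interaction of -0.28 ± 0.13 (log2, SE; adjusted p = 0.45, edgeR) did not pass the test.

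Vps35 (chr8:85260392-85299802, minus strand), the retromer core, had overlapping groups throughout. Its levels were 126, 136, 135, 141 and 149 CPM in aSyn Tg 15 mo and 135, 147, 127, 129 and 139 CPM in aSyn Tg 3 mo. In Wt they were 138, 147, 133, 143 and 141 CPM at 15 mo and 128, 135, 121 and 145 CPM at 3 mo. The fold changes of Vps35 were 1.02 between ages in aSyn Tg, 1.07 between ages in Wt, 1.03 between genotypes at 3 mo and 0.980 at 15 mo, with adjusted p-values of 0.44 to 0.92 (edgeR).

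Vps13c (chr9:67840396-67995638, plus strand), the lipid transfer protein, varied least of the 10 genes, with a coefficient of variation of 2.75% over the 19 libraries. Its levels were 247, 241, 242, 236 and 254 CPM in aSyn Tg 15 mo and 246, 249.5, 241, 255 and 249 CPM in aSyn Tg 3 mo. In Wt they were 256, 247, 256, 252 and 256 CPM at 15 mo and 239, 248, 235 and 242 CPM at 3 mo. In Wt, 4 of 5 libraries at 15 mo were above all 4 at 3 mo, with a fold change of 1.05 (95% interval 0.995 to 1.11, adjusted p = 0.36, edgeR). At 15 mo, 4 of 5 aSyn Tg libraries were below all 5 Wt libraries, with a fold change of 0.968 (95% interval 0.911 to 1.03, adjusted p = 0.70, edgeR). The fold changes were 0.987 between ages in aSyn Tg and 1.03 between genotypes at 3 mo, and neither passed the test.

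Dnajc6 (chr4:101496648-101642799, plus strand), the neuronal auxilin, was lower in aSyn Tg than in Wt at 15 mo at an unadjusted p under 0.05 alone. The levels at 15 mo were 264, 251, 269.5, 284 and 280.0 CPM in aSyn Tg and 306, 301, 288, 294 and 279 CPM in Wt. The ranges met at their edges, with 3 of 5 aSyn Tg libraries below all Wt libraries, and the fold change was 0.922 (95% interval 0.857 to 0.991, adjusted p = 0.38, edgeR). The 9 markers of neurons in general, all above 0, summed to 5501 to 6324 CPM (median 5600.3) in aSyn Tg 15 mo and 5969 to 6334 CPM (median 5996) in Wt 15 mo, and their part in the Dnajc6 values was not tested. At 3 mo the values were 274, 296, 278, 261 and 269.6 CPM in aSyn Tg and 271, 275, 271 and 292 CPM in Wt, with a fold change of 0.998 (0.939 to 1.06). Between ages the fold changes of Dnajc6 were 0.981 in aSyn Tg and 1.06 in Wt (adjusted p = 0.89 and 0.36).

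Gak (chr5:108569411-108629755, minus strand) had 142, 137, 146, 156 and 145 CPM in aSyn Tg 15 mo and 136, 143, 143, 137 and 146 CPM in aSyn Tg 3 mo. In Wt it had 143, 141, 133, 137 and 138 CPM at 15 mo and 136, 132, 144 and 129.8 CPM at 3 mo. The groups overlapped at both ages, with the highest value in aSyn Tg 15 mo library 5. Over both ages Gak was 1.04-fold higher in aSyn Tg (log2 0.06 ± 0.03, SE; adjusted p = 0.39, edgeR), and without aSyn Tg 15 mo library 5 the log2 value was 0.05 (adjusted p = 0.45).

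Uchl1 (chr5:66676091-66687234, plus strand), the neuronal ubiquitin hydrolase, depended on a single library. Its levels were 221, 246, 229.6, 380.2 and 247 CPM in aSyn Tg 15 mo and 252, 279, 257, 234 and 265 CPM in aSyn Tg 3 mo. In Wt they were 287, 264, 275, 249.6 and 246 CPM at 15 mo and 251, 249, 221 and 257 CPM at 3 mo. The highest value was that of aSyn Tg 15 mo library 5, and the other 4 libraries of that group lay within or below the ranges of aSyn Tg 3 mo and Wt 15 mo. With all libraries the fold change of Uchl1 between genotypes at 15 mo was 0.996 (95% interval 0.831 to 1.19, adjusted p = 0.97, edgeR).

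Without aSyn Tg 15 mo library 5 the log2 fold change of Uchl1 was -0.16 between genotypes at 15 mo (adjusted p = 0.23), against -0.01 with it. Between ages in aSyn Tg it was -0.12 without that library (adjusted p = 0.30), against 0.03 with it. The interaction for Uchl1 was -0.23 without library 5 (adjusted p = 0.21) and -0.09 with it (adjusted p = 0.88). None of these passed the test, but the direction between ages in aSyn Tg turned. At 3 mo, which does not use that library, Uchl1 was 1.05-fold higher in aSyn Tg than in Wt (adjusted p = 0.62), and in Wt it was 1.08-fold higher at 15 mo than at 3 mo (adjusted p = 0.36).

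Fbxo7 (chr10:86021972-86051873, plus strand), the ubiquitin ligase subunit, was again set apart in the same library, in the opposite direction. Its levels were 87.3, 92.9, 91.1, 65.4 and 91.8 CPM in aSyn Tg 15 mo and 88.8, 92.5, 88.8, 84.6 and 82.1 CPM in aSyn Tg 3 mo. In Wt they were 76.4, 81.8, 90.4, 92.2 and 88.9 CPM at 15 mo and 91.3, 95.4, 83.3 and 98.2 CPM at 3 mo. The value of aSyn Tg 15 mo library 5 was the lowest of the 19, and the other values of Fbxo7 overlapped. Its fold change was 1.00 between ages in aSyn Tg, 0.938 between ages in Wt, 0.956 between genotypes at 3 mo and 1.01 at 15 mo, with adjusted p-values of 0.54 or more (edgeR). Without library 5 its log2 fold change was 0.06 between ages in aSyn Tg (adjusted p = 0.62) and 0.08 between genotypes at 15 mo (adjusted p = 0.59).

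Pla2g6 (chr15:79286228-79328390, minus strand), the phospholipase, had the lowest adjusted p of the 10 genes between genotypes at 3 mo. Its level was 20.6, 23.3, 21.2, 19.6 and 21.4 CPM in the 5 aSyn Tg libraries and 27.2, 26.2, 26.0 and 27.1 CPM in the 4 Wt libraries. Each aSyn Tg library was below each Wt library, which held for 1 of the 10 genes, Pla2g6, beside 4.2% of all genes tested whose groups did not overlap. The fold change was 0.797 (95% interval 0.711 to 0.893), on the log2 scale -0.33 ± 0.08 (SE), with an adjusted p of 0.058 in edgeR, so Pla2g6 was past the fold limit and missed the limit on p. With 1 factor of unwanted variation, taken from residuals, in the edgeR fit, the adjusted p of Pla2g6 was 0.030 and it was called. The methods name DESeq2 with RUVseq covariates and give no number of factors, so this fit is not the authors' own. Over the other settings its adjusted p was 0.056 (filterByExpr) to 0.47 (replicate block), with none below 0.05. The microglial markers summed to 195 to 214 CPM in aSyn Tg 3 mo and 211 to 225 CPM in Wt 3 mo, and the markers of oligodendrocyte precursors to 594 to 648 CPM in aSyn Tg 3 mo and 636 to 715 CPM in Wt 3 mo. Other marker sums had higher medians in aSyn Tg 3 mo than in Wt 3 mo, with ranges that overlapped. For oligodendrocytes these were 5434 and 5256 CPM, for astrocytes 3473 and 3435 CPM, and for serotonergic and cholinergic neurons 252 and 206 CPM. The part of any of these markers in the Pla2g6 values was not tested.

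At 15 mo Pla2g6 did not separate the genotypes, with 20.4, 23.0, 22.7, 23.5 and 22.6 CPM in aSyn Tg and 21.7, 19.5, 26.1, 20.8 and 22.9 CPM in Wt. The fold change was 1.01 (95% interval 0.876 to 1.16). In Wt, 4 of 5 libraries at 15 mo were below all 4 libraries at 3 mo, with a fold change of 0.836 (95% interval 0.729 to 0.958, adjusted p = 0.19, edgeR). Between ages in aSyn Tg it was 1.06 (adjusted p = 0.79). The mean of Pla2g6 was thus highest in Wt 3 mo, and those same 4 libraries stand in both comparisons. The interaction of genotype and age was 0.33 ± 0.11 (log2, SE; adjusted p = 0.34, edgeR) and did not pass the test. Pla2g6 had 47 to 256 reads in a library, the fewest of the 10 genes.

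**Figure D3:**
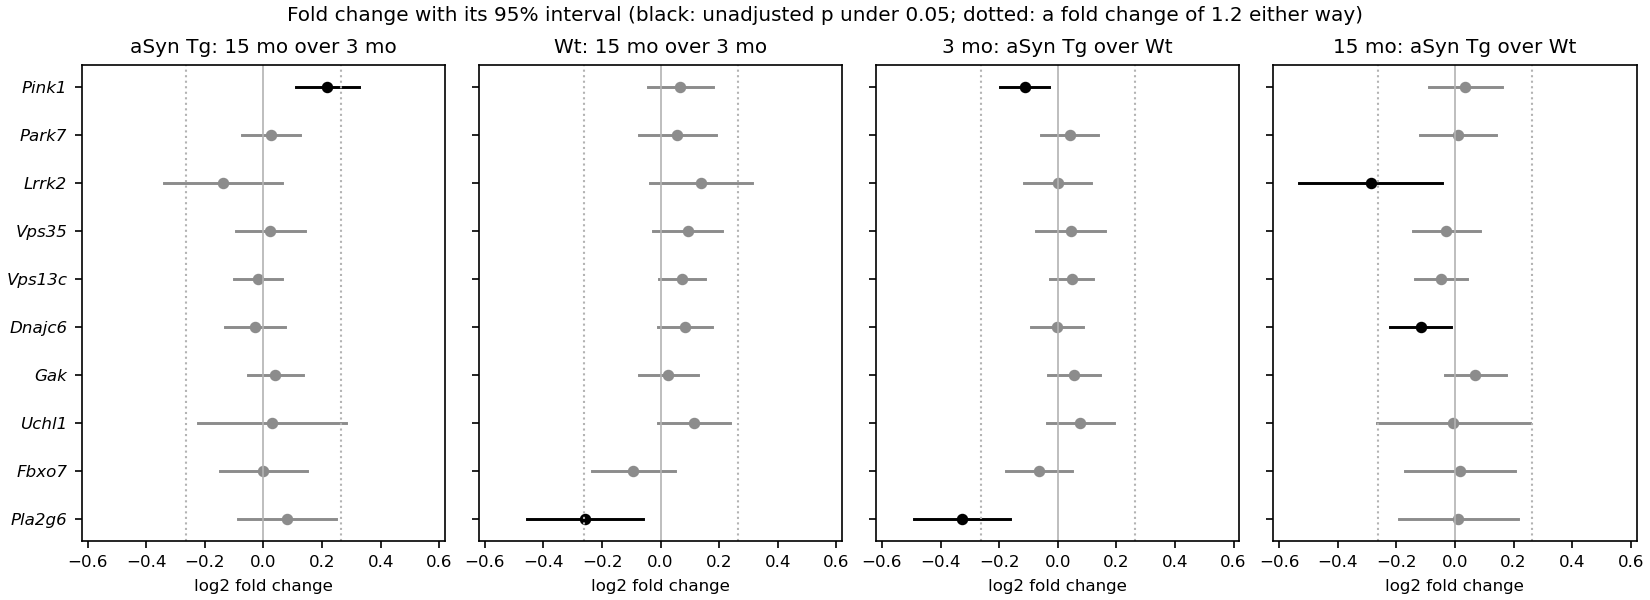
log2 fold change of the 10 genes (rows) with its 95% interval in 4 comparisons: aSyn Tg 15 mo over 3 mo, Wt 15 mo over 3 mo, aSyn Tg over Wt at 3 mo and aSyn Tg over Wt at 15 mo; dotted lines mark a 1.2-fold change either way and black marks an unadjusted p under 0.05. Pink1 at 0.22 between ages in aSyn Tg and Pla2g6 at -0.33 between genotypes at 3 mo lie farthest from 0 for their intervals, and none of the 40 values was called.

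Set against each other per kb of exon, the 10 genes spanned the upper part of all genes with a known length. Uchl1 stood highest with 158 ± 21.1 CPM per kb (mean ± SD over 19 libraries), followed by Pink1 with 107 ± 8.25, Dnajc6 with 47.3 ± 2.43, Park7 with 31.6 ± 1.49 and Gak with 21.8 ± 0.953 CPM per kb. Vps35 with 15.3 ± 0.907, Vps13c with 15.1 ± 0.417 and Fbxo7 with 14.2 ± 1.22 CPM per kb followed, and these neighbours overlapped. Lrrk2 with 4.77 ± 0.621 and Pla2g6 with 4.22 ± 0.459 CPM per kb were lowest and overlapped each other. In percentiles of level per kb over 20737 genes, this ran from 99.2 for Uchl1 to 51.9 for Pla2g6. No library of one gene reached those of the next across the other neighbours in this order. The length is that of all annotated exons of a gene (GENCODE M21), so a transcript that uses few of them has a level per kb that is too low.

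**Figure D4:**
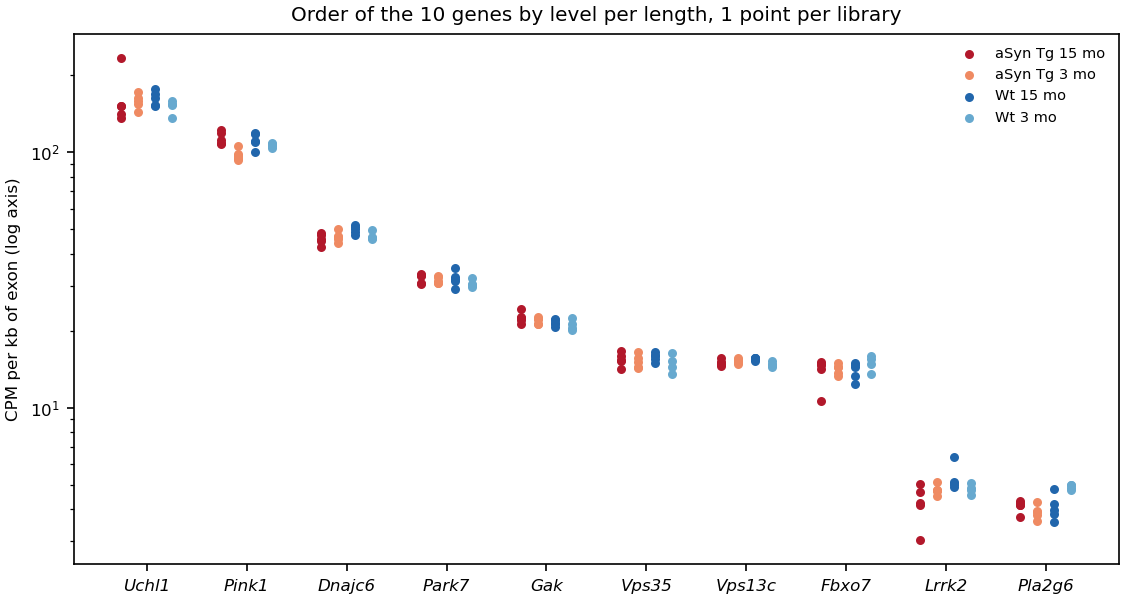
Level per length (CPM per kb of exon, log axis) of the 10 genes, ordered by their mean over 19 libraries; each point is 1 library, coloured by group in the order aSyn Tg 15 mo, aSyn Tg 3 mo, Wt 15 mo and Wt 3 mo. The order runs from Uchl1 at a mean of 158 to Pla2g6 at 4.22, with Vps35, Vps13c and Fbxo7 overlapping near 15 and Lrrk2 overlapping Pla2g6.

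Reads at some loci could belong to a neighbour. Uchl1os, an antisense RNA, shares 295 bases of exon with Uchl1 (18.1% of the Uchl1 exons) and was at 0.533 to 0.853 CPM on average in the 4 groups. Orc6 shares 171 bases on the opposite strand with Vps35 and averaged 13.3 to 15.7 CPM. The 5′ end of Fbxo7 shares 314 bases with the antisense gene A230060F14Rik. No source used here says whether the counting used strand, so reads in these stretches could not be assigned to one partner. On the same strand, Gm43365 shares 199 bases of exon with Gak (3.09% of the Gak exons) and averaged 1.41 to 2.17 CPM, and the miRNA genes Mir7019 and Gm27646 share 69 and 110 bases with Pink1, stretches that strand cannot assign either.

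The genes whose level followed each of the 10 most closely over the 19 libraries were sought among 10905 genes by Pearson's r of log2 CPM (pseudocount 1), as a description, since all points share library depth and composition. For Pink1 they were Apoe (r = 0.85), the apolipoprotein E gene, Sgta (0.82) and Srp14 (0.82). For Dnajc6 they were Slc1a2 (0.87), the astrocytic glutamate transporter, Slc24a2 (0.86) and Cltc (0.85), which encodes the clathrin heavy chain that auxilins act on. For Pla2g6 they were Zcchc24 (0.90), Itpk1 (0.82), an inositol phosphate kinase, and Slc27a1 (0.80), a fatty acid transporter. These r values of Pink1, Dnajc6 and Pla2g6 changed by little without aSyn Tg 15 mo library 5, the first of each being 0.82, 0.87 and 0.91.

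The likeness of the genes that library 5 set apart rested more on it. Uchl1 followed Atp5b (r = 0.96), a subunit of the mitochondrial ATP synthase, Dync1h1 (0.96), the dynein heavy chain, and Pmm1 (0.93). Without library 5 these were 0.89, 0.88 and 0.78. Lrrk2 followed Ppp1r12a (0.91, and 0.81 without library 5), Kcnq5 (0.88, and 0.74 without it) and Hecw1 (0.88, and 0.75 without it). Fbxo7 followed Klf3 (0.91, and 0.78 without library 5), Arhgef6 (0.88, and 0.70 without it) and Ptchd1 (0.87, and 0.65 without it). Gak followed Ppp1r11 (0.87), Lars (0.84) and Tfip11 (0.80), which were 0.82, 0.73 and 0.65 without library 5. The likeness was lowest for Park7, whose closest gene was Timm8b (0.77), Vps35, with Serinc1 (0.78), and Vps13c, with Dmxl1 (0.73).

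Among the 10 genes themselves, the strongest relation over the 19 libraries was that of Gak with Fbxo7 (r = -0.75, and -0.56 without aSyn Tg 15 mo library 5). It was followed by Uchl1 with Fbxo7 (r = -0.66, and -0.15 without it) and Vps35 with Dnajc6 (r = 0.58, and 0.57 without it). Without that library the strongest relation was that of Dnajc6 with Uchl1 (r = 0.69, and 0.48 with it). Both ubiquitin genes were thus set against each other mainly through library 5. Lrrk2 with Fbxo7 had r = 0.41 with that library and -0.42 without it, a change of sign.

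The pathways around these genes were read through 8 lists, without the 10 genes. They covered PINK1 mitophagy and mitochondrial dynamics, DJ1 and oxidative stress defence, retromer with WASH complex and sorting nexins, and the clathrin coat and auxilin cycle. The others covered LRRK2 Rab substrates and partners, the ubiquitin and proteasome system of FBXO7 and UCHL1, VPS13 and lipid transfer, and phospholipase A2 with phospholipid remodelling. Of the 239 to 245 list genes tested, 0 were called in either direction in any of the 7 comparisons. Over all genes tested, 0.00917% (interaction) to 1.47% (between ages over both genotypes) were called. At an unadjusted p under 0.05 there were 27 of 242 between ages in aSyn Tg (11.2%) and 37 of 240 between ages in Wt (15.4%). There were 34 of 245 between genotypes at 3 mo (13.9%) and 24 of 239 between genotypes at 15 mo. Over all genes tested the shares were 11.2%, 15.6%, 12% and 11.2% in the same order.

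The median log2 fold change of a list lay between -0.07 and 0.07 in all 7 comparisons, where the median over all genes tested was within 0.01 of 0. For mitophagy genes it was 0.01 between ages in aSyn Tg and 0.02 in Wt. For the oxidative stress list it was 0.06 in both genotypes, with 4 of 22 and 2 of 22 genes at an unadjusted p under 0.05 in aSyn Tg and in Wt. For the clathrin and auxilin list, which holds the partners of Dnajc6 and Gak, it was -0.04 between genotypes at 15 mo (4 of 39). For the phospholipid list it was -0.02 between genotypes at 3 mo (3 of 24), where Pla2g6 was at -0.33.

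A few list genes passed the limit on p but not that on the fold, and are named after their values were seen. Between ages over both genotypes, Pink1 (adjusted p = 0.040, edgeR) stood at rank 225 by p of 10905 genes. At least 225 genes thus passed the limit on p there, and nothing about the lists is drawn from the genes named. Hsph1, a co-chaperone of HSP70 as are the auxilins, had a fold change of 0.868 between 15 mo and 3 mo over both genotypes (adjusted p = 0.024, edgeR) and of 0.851 between aSyn Tg and Wt over both ages (adjusted p = 0.032). Ankrd50, which works with the retromer and WASH complex, was at 0.888 between ages over both genotypes (adjusted p = 0.0086). Pnpla6, a phospholipase of the same patatin-like family as Pla2g6, was at 0.900 between ages over both genotypes (adjusted p = 0.028).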

How the data were processed

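The labels describe 40 midbrain samples of aSyn Tg and Wt mice in 4 groups, with 5 input and 5 m6A immunoprecipitated in each, and the expression table holds 19 input libraries. The aSyn Tg columns carry numbers other than those of the sample titles, so libraries are named by group and the number in the table, and p-values measure the spread between these libraries. The authors depleted rRNA, used STAR on mm10 and then featureCounts for read counts per gene, while the labels name mm9, DESeq and a small RNA kit. What the authors deposited per library is a signal, namely counts over a size factor. Dividing by the step of a library gave whole reads for 395295 of 395295 values (tolerance 0.01), so the count test planned for raw counts was run on these reads. The 36 library columns of other tables, which repeat these libraries with other scalings, and the log2 fold changes and p-values of the authors' own comparisons were not used. The peaks the authors deposited were called with MeTPeak and come as 1 consensus list per group, with a fold enrichment (ratio of immunoprecipitated to input reads) and scores that are the log10 of p and FDR; differential peaks came from exomePeak with a deposited log2 fold change and FDR, used only to apply its limits. The list of aSyn Tg 15 mo was identified because the other 3 lists name their groups.

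The quasi-likelihood test of edgeR 4.0.16 (R 4.3.3, TMM) was run on genes averaging 50 or more normalized counts, on the 2 groups compared or, for genotype, age and their interaction, on all 19 libraries; no fold limit was set for the interaction. Standard errors and 95% intervals come from the F statistic, and for a gene whose spread is below that of counting edgeR gives a larger p than they imply. CPM are TMM-scaled. At 2163856 to 9195756 reads per library, Pla2g6 had 47 to 256 reads and the 10 genes were all above the count limit. The fit was tested on simulated data. Alternatives were DESeq2 1.42.0, limma 3.58.1, RLE scaling, filterByExpr, 1 RUVr factor, the replicate number as a block, all groups in a single fit and each library left out. Each peak was set on a single GENCODE M21 transcript of its gene with pysam 0.24.0 and pandas 2.3.3, and peaks of other genes whose exon blocks could not be read were left out of the motif shares. The rule named the 10 genes, list genes called in a comparison (there were 0), the 3 genes most like each of the 10, and markers; the genes and lists were chosen with earlier results of these data known. The gene check of the genotype labels is not reported here.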

Additional observations from a re-analysis of the deposited data

Results flagged for a closer look

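In 40 sets of values (10 genes in 4 groups), Dixon's test at the 95% level set 1 library apart from its group in 4 sets. Chance does so in about 1 in 20 independent sets. These sets share the same libraries between genes and are not independent, and aSyn Tg 15 mo library 5 was set apart for both Uchl1 and Fbxo7. All groups, of 5 libraries or for Wt 3 mo of 4, were tested.

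Uchl1 was highest in aSyn Tg 15 mo library 5, at 380.2 CPM, with a gap to the next library of 0.838 of the group's range. Fbxo7 was lowest in the same library, at 65.4 CPM, with a gap of 0.797 of the range. This library had the fewest reads of the 19 and the largest share of reads in its 10 most abundant genes, and the part of these in the Uchl1 and Fbxo7 values was not tested. Within aSyn Tg 15 mo, Pla2g6 was lowest in library 2, at 20.4 CPM, with a gap of 0.715 of the range, just past the limit of 0.71. Wt 15 mo library 2, at 19.5 CPM, was lower. In Wt, Lrrk2 was highest in Wt 15 mo library 2, at 75.5 CPM, the library with the highest summed markers of cortex, hippocampus and cerebellum.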

How the results depend on the processing

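None of the 10 genes was called in the main fits, so no setting could reverse a call. Of 1410 single values of these genes over the settings, 1409 stayed uncalled. The exception was Pla2g6 between genotypes at 3 mo, called with 1 RUVr factor (log2 fold change -0.33), where 1 of the 10 genes was called against 0. The sign of some fold changes did turn, most often for Fbxo7 between ages in aSyn Tg. There it turned in 12 settings, from a main log2 value of 6.2e-05. Leaving out each library in turn called 0 of the 10 genes in all 7 comparisons. Counts over all genes depended on the setting, and the cause was not tested. With DESeq2, called genes were 159 between ages in aSyn Tg (101 with edgeR), 118 between ages in Wt (39), 88 between genotypes at 15 mo (23), 41 between genotypes over both ages (19) and 23 for the interaction (1). With filterByExpr, which tests more genes of low count, they were 210 between ages in aSyn Tg, 280 between ages over both genotypes (160) and 10 for the interaction. With 1 RUVr factor they were 181 between ages in aSyn Tg, 318 between ages in Wt, 187 between genotypes at 3 mo (95), 36 between genotypes over both ages and 12 for the interaction. In a single fit they were 80 between ages in Wt, 12 between genotypes at 3 mo and 106 at 15 mo. Without 1 library each, the ranges were 52 to 138 between ages in aSyn Tg (without aSyn Tg 15 mo library 3 and 5), 0 to 326 between ages in Wt (without Wt 3 mo library 4 and Wt 15 mo library 3), 28 to 165 between genotypes at 3 mo (without Wt 3 mo library 2 and aSyn Tg 3 mo library 6), 11 to 42 at 15 mo (without Wt 15 mo library 2 and 3), 15 to 25 and 114 to 185 for genotype and age over all libraries, and 0 to 20 for the interaction.

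With the replicate number as a block, called genes were 42 between ages in aSyn Tg, 4 between ages in Wt, 46 between genotypes at 3 mo and 39 at 15 mo, and 0 of the 10 genes. Libraries of the same number correlated in their deviations from the group means at a median of 0.049 (-0.28 to 0.31, 23 pairs). For other pairs the median was -0.0075 (-0.37 to 0.35, 112 pairs). Between genotypes, same-number pairs were at 0.165, 0.305, 0.202 and -0.045 at 15 mo (libraries 2 to 5). At 3 mo they were at -0.104, 0.049 and -0.249 (libraries 3 to 5). The ranges overlap and the aSyn Tg numbers are not those of the sample titles, so these values do not settle whether the numbers pair the samples. Of the m6A sites of the 10 genes, 3 were in all 4 lists at an overlap of 1 base and 1 when an overlap of 50% of each peak was asked for. The reads in a library were 47 to 256 for Pla2g6 and 72 to 506 for Lrrk2, the lowest of which limit the precision of their CPM.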
